A study of Mus musculus with 4 samples.

Results

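Fibroblast growth factors (FGFs) and their receptor tyrosine kinases were followed here through 10 genes: the ligands Fgf1, Fgf2, Fgf7, Fgf9, Fgf10 and Fgf20 and the receptors Fgfr1, Fgfr2, Fgfr3 and Fgfr4. Their members were all probe sets of the Affymetrix mouse genome array that the platform annotation assigns to exactly 1 of these symbols. That gave 23 probe sets, 10 for ligands and 13 for receptors, of 45101 on the array, and 10 genes of 18193 named. RNA came from kidneys of C57BL/6 embryos at embryonic day 15, and each array carried a pool of 16 kidneys. In the control group, C57BL/6 dams, 8 weeks old at the start, ate a diet with 220 ppm iron. In the iron-deficient group, dams of the same strain and age ate a synthetic diet with 2 to 6 ppm iron, and both diets began 3 weeks before gestation and lasted through pregnancy. Each diet had 2 pools, and all 4 shared strain, stage, tissue and a sex given as female. Whether pools under 1 diet held kidneys of different litters is not stated, so p-values reflect the spread between pools alone, and that spread may be technical.

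An FGF binds its receptor together with heparan sulfate on the cell surface, and the receptor then signals through adaptors such as Frs2 and Grb2 to the Ras and MAP kinase cascade. Sprouty proteins and the phosphatase Dusp6 are induced by this signal and restrain it. In the forming kidney, Fgf9 and Fgf20 keep nephron progenitors alive and undifferentiated, Fgf7 and Fgf10 come from mesenchyme and act on Fgfr2 in the branching ureteric epithelium, and Fgfr1 and Fgfr2 are needed in the metanephric mesenchyme.

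Every array was scaled to the same trimmed mean, and the arrays differed in other ways. Iron-deficient pool 1 stood apart, with a correlation of log2 signals across probe sets of 0.883 to 0.913 with the other arrays, where the control pools reached 0.978. Its 5′ control probe set for 18S ribosomal RNA read 2144.5, against 243 to 291.9 on the others. Background, taken as the highest of 27 control probe sets for transcripts that were not added, was 8.2 to 8.5 on control arrays and 13.3 to 14.4 on iron-deficient ones. The Y-linked gene Eif2s3y read 594.5 and 600 under the control diet and 253.6 and 20.8 under iron deficiency. All but the last value went against the labelled sex, and 20.8 was near the background of its array, 13.3. Xist, which female cells express, read 926.6 and 167.8 under the control diet and 3427.3 and 1543.3 under iron deficiency. The mix of sexes may thus differ with diet, and their parts in the values below cannot be told apart. Because the arrays differed in these ways, the tested members are given with the value in every pool. As for the labelled tissue, markers of nephron progenitors (6 of 6), ureteric bud tips (4 of 4), renal stroma (5 of 5), proximal tubule (6 of 6) and endothelium (5 of 5) were above background in all pools. So were 3 of 5 podocyte markers, 4 of 5 markers of the ureteric trunk and collecting duct, 5 of 7 of skeletal muscle, 4 of 6 of liver, 3 of 5 of adrenal and 4 of 5 of blood. The number of arrays limits the precision of every value.

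The comparison of diets asked whether FGF transcripts of the embryonic kidney depend on the iron in the diet of the dam. Fgf1 had the largest difference of the tested members, with a signal of about 260 in both control pools and 94.7 to 116.5 in the iron-deficient pools. The ligand Fgf10, 1 of 2 Fgf9 probe sets and 1 of 3 Fgfr1 probe sets were somewhat higher in both iron-deficient pools. For Fgf10 the signals were dim and the margin in pool 2 was narrow. Fgf20 was slightly lower. For Fgfr2, Fgfr3 and Fgfr4, iron-deficient pool 2 lay close to the controls on the brightest probe set, and pool 1 lay away from them. No member passed once p-values were adjusted over the whole array.

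Of the 23 probe sets, 17 from 9 genes were bright enough to be tested, which means that they were not among the dimmest 40%. By limma, a linear model that shares the estimate of spread across probe sets, with Benjamini-Hochberg adjustment over 27022 probe sets, 0 of the 17 passed an adjusted p of 0.05, with adjusted p from 0.852 to 0.987, and 0% of all probe sets passed. At an unadjusted p under 0.05 lay 1 member, a probe set of Fgf1, where the share over all tested probe sets was 3.96%. Signals under iron deficiency exceeded both controls in each pool for 3 of 17 members (17.6%), against 11.8% of all tested probe sets. They were below both controls for 4 of 17 (23.5%), against 25%. In either direction the diets did not overlap for 41.2% of the members and 36.7% of all probe sets, so the members' shares were near those of the array as a whole. The median log2 difference, iron-deficient minus control, was 0.07 for the tested members and -0.10 for all tested probe sets. An exact permutation test of 2 pools against 2 cannot give a two-sided p below 0.33.

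**Figure D1:**
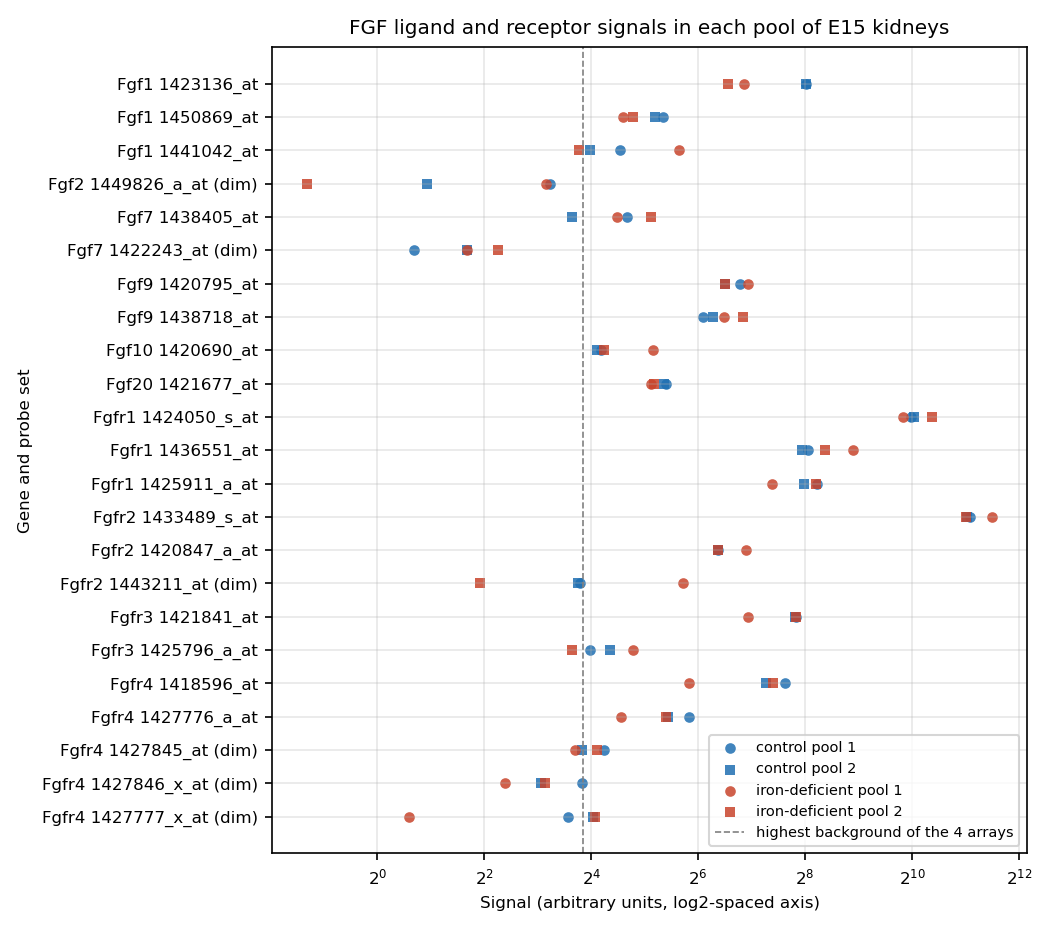
Signal of each FGF ligand and receptor probe set (rows) in the 4 pools, on a log2-spaced axis in arbitrary units. Blue is control, red is iron-deficient, circles are pool 1 and squares pool 2. Probe sets marked dim were not tested, and the dashed line is the highest background of the arrays, 14.4. The control signals of the brightest Fgf1 probe set, 259.8 and 259.7, lie on top of each other, well to the right of the iron-deficient ones.

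Upstream sequence was read for 7 of the 10 genes as windows of 300 bases, from 250 before to 50 after an annotated start (RefSeq, GRCm38.p6), 8 windows in all because Fgfr3 has 2 starts. No window was read for Fgf1, Fgf20 or Fgfr1, so nothing below applies to Fgf1, the member with the largest difference. The enzymes that mark hypoxia-inducible factors for degradation need both oxygen and iron. The windows were searched on both strands for ACGTG and GCGTG, the core letters of the hypoxia response element. A match lay in 7 of the 8 member windows, against 43.8% of all 32851 windows of this length in the table, and the member windows were mostly richer in CpG (4 to 30 CpG each) than the median window (7 CpG). Shown here are the windows of the ligands Fgf9 and Fgf10 and of the receptor Fgfr4, which each had a probe set whose diets did not overlap, with matches in capitals. A match describes letters only and is not a binding site.
Fgf9, chr14:58072436-58072735, plus strand, GRCm38.p6: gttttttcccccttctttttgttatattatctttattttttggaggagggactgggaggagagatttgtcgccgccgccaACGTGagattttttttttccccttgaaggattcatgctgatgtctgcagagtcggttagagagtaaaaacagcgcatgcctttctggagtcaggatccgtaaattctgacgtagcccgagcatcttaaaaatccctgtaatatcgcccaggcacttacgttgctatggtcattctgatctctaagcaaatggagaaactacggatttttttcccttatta
Fgf10, chr13:118714449-118714748, plus strand, GRCm38.p6: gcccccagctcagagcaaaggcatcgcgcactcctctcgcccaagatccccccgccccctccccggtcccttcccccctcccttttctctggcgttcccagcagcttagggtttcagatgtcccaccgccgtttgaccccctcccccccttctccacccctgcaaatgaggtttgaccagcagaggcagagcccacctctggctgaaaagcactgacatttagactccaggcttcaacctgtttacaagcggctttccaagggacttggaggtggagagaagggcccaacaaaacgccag
Fgfr4, chr13:55152568-55152867, plus strand, GRCm38.p6: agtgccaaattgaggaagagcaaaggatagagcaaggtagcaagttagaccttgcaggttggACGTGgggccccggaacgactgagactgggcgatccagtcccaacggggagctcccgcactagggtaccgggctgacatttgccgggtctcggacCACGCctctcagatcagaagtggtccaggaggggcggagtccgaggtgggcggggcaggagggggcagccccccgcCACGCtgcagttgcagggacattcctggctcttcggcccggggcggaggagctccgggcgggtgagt
The Fgf9 window held 1 match, the Fgf10 window 0 and the Fgfr4 window 3, with G or C at 42.7%, 60.7% and 65.3% of bases. A window without a match, like that of Fgf10, lacks only these letters in these bases. The other windows held 1 match for Fgf2, 3 for Fgf7, 2 for Fgfr2, and 5 and 1 for the 2 starts of Fgfr3. The 2 of Fgfr2 overlap, as the same letters CACGTG read on each strand.

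Fgf1, acidic FGF, binds all 4 receptors and leaves cells without a classical secretion signal. Its brightest probe set (1423136_at) read 259.8 and 259.7 under the control diet and 116.5 and 94.7 under iron deficiency, in the order of pools 1 and 2, which all such values below follow. Both iron-deficient pools were lower than both control pools, and the control values were nearly equal. The log2 difference was -1.31 ± 0.32 (SE, 95% interval -2.11 to -0.50), with an unadjusted p of 0.00793 and an adjusted p of 0.852 by limma. In size it exceeded 96.7% of the differences of all tested probe sets, and each iron-deficient pool showed it, at -1.16 and -1.46 against the control mean. A dimmer probe set made from the same source sequence (1450869_at) had control signals of 40.6 and 36.6 and iron-deficient signals of 24 and 27.6, again without overlap, with a log2 difference of -0.58 ± 0.32 (adjusted p = 0.852 by limma). These probe sets are not independent measurements, since they share that source.

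The third Fgf1 probe set (1441042_at) did not follow them. It read 23.3 and 15.7 under the control diet and 49.7 and 13.6 under iron deficiency, so that pool 1 was the highest of the 4 and pool 2 the lowest. Its log2 difference was 0.44 ± 0.67, and without iron-deficient pool 1 it was -0.49. Proximal tubule markers moved with the brighter Fgf1 probe sets: 6 of 6 markers (Hnf4a, Slc5a2, Lrp2, Slc34a1, Cubn and Slc27a2) were lower in each iron-deficient pool than in the controls, and their summed signal was 4251.1 to 4483.7 in control and 1396.9 to 2101.8 in iron-deficient pools. Their part in the Fgf1 difference was not tested, and in pooled tissue fewer cells of a type and less RNA per cell cannot be told apart. Endothelial markers were lower as well, at 3104.9 to 3241.6 in control and 2348 to 2378.6 in iron-deficient pools, with 3 of 5 markers lower in both pools and 1, Pecam1, higher.

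Fgf9 and Fgf20 are closely related ligands that act on nephron progenitors. The brighter Fgf9 probe set (1420795_at) had control signals of 110.3 and 91.1 and iron-deficient signals of 122 and 90.3, with overlapping diets and a log2 difference of 0.07 ± 0.35 (95% interval -0.80 to 0.93). The dimmer one (1438718_at) read 68 and 77.8 under the control diet and 89.3 and 114.6 under iron deficiency. Here both iron-deficient pools were higher, by 0.48 ± 0.33 on the log2 scale (95% interval -0.35 to 1.31), and the diets overlapped after median centring of the arrays. Fgf20 (1421677_at) had control signals of 42.1 and 41.1 and iron-deficient signals of 34.6 and 36. It was lower in both iron-deficient pools by a small amount, a log2 difference of -0.24 ± 0.31 (95% interval -1.01 to 0.54), and the diets overlapped after median centring or quantile normalization. The summed signal of 6 nephron progenitor markers (Six2, Cited1, Eya1, Meox1, Osr1 and Sall1) overlapped between diets, at 3702.9 to 3758.3 in control and 3502.4 to 4061.3 in iron-deficient pools, with 3 markers higher and 2 lower in each iron-deficient pool.

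Fgf7 and Fgf10 are mesenchymal ligands that activate the epithelial form of Fgfr2. Fgf10 (1420690_at) read 18.2 and 17.3 under the control diet and 35.6 and 18.8 under iron deficiency. Pool 1 was the high one and pool 2 lay just above the controls, so the log2 difference of 0.54 ± 0.42 was 0.08 without iron-deficient pool 1, and after quantile normalization the diets overlapped. The control and pool 2 signals were close to the dimmest that were tested, 17.3. Background was 8.2 to 8.5 on control and 13.3 to 14.4 on iron-deficient arrays, so the narrow margin of pool 2 cannot be told apart from a higher background. Fgf7 (1438405_at) had control signals of 25.3 and 12.5 and iron-deficient signals of 22.4 and 34.6, which overlapped, with a log2 difference of 0.65 ± 0.47. Its control pools were further apart than those of any other tested member, by 1.02 log2 units. The other Fgf7 probe set (1422243_at) was below background in all pools, at 1.6 to 4.8. Fgf2, basic FGF, had 1 probe set (1449826_a_at), which read 9.4 and 1.9 under the control diet and 8.9 and 0.4 under iron deficiency and was above background in 1 of 4, so no diet comparison was made for it. Markers of renal stroma, a source of mesenchymal ligands, summed to 7120.7 to 7390.5 in control and 8708.3 to 10761.9 in iron-deficient pools. Col1a1 gave the largest part of the sum in iron-deficient pool 1, at 6104.7. Of the markers, 3 of 5 (Foxd1, Pdgfra and Col1a1) were higher in both iron-deficient pools. Tcf21 and Meis1 overlapped between diets and were below both controls in iron-deficient pool 1, at 1832.1 and 117.6. Their part in the Fgf10 values was not tested.

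**Figure D2:**
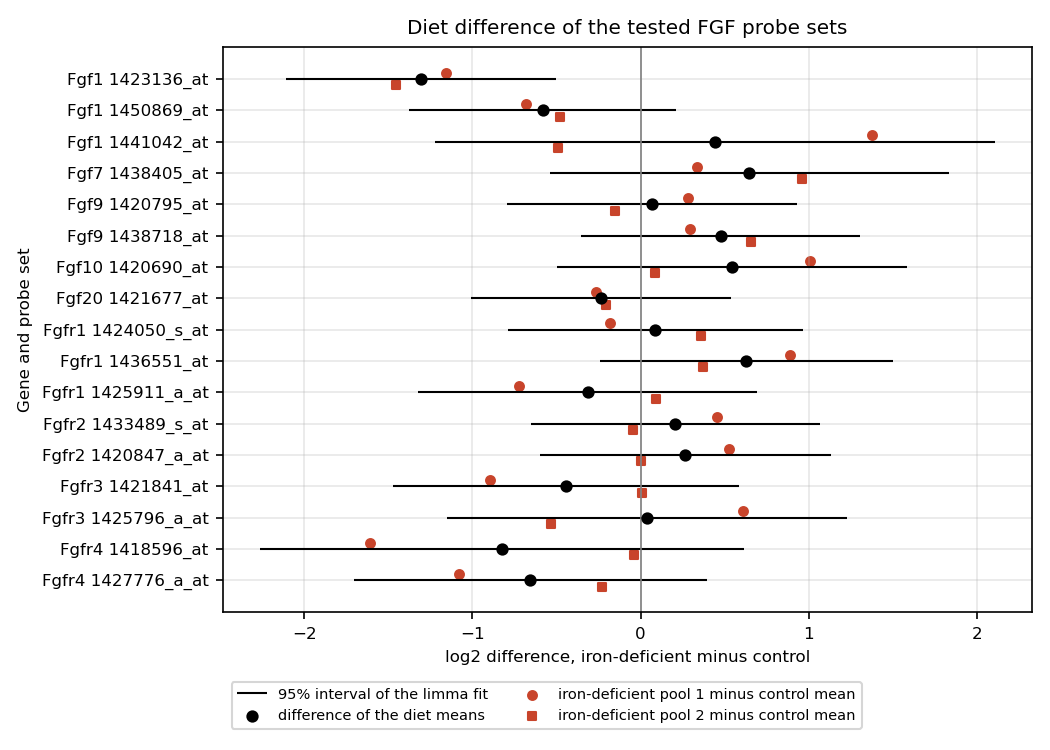
Differences between diets on the log2 scale (iron-deficient minus control) for the 17 tested probe sets (black points, with 95% intervals of the limma fit as lines), and of each iron-deficient pool against the control mean (red circles for pool 1, red squares for pool 2). Only the interval of the brightest Fgf1 probe set, -2.11 to -0.50, leaves out 0. For Fgfr2, Fgfr3 and Fgfr4 the squares of the brightest probe sets sit near 0 and the circles away from it.

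Among the receptors, Fgfr1 is the main one of the metanephric mesenchyme, and its 3 probe sets did not move together. The brightest (1424050_s_at) had control signals of 1005.2 and 1052.8 and iron-deficient signals of 905.4 and 1319.9, on both sides of the controls, with a log2 difference of 0.09 ± 0.35. The probe set 1436551_at read 266.4 and 245.2 under the control diet and 473.5 and 329.8 under iron deficiency. Both iron-deficient pools were higher there, by 0.63 ± 0.35 on the log2 scale (95% interval -0.24 to 1.50; adjusted p = 0.852 by limma), and the difference was 0.37 without pool 1. The third (1425911_a_at) had control signals of 300.5 and 251.9 and iron-deficient signals of 166.6 and 293.2, low in pool 1 only, with a log2 difference of -0.32 ± 0.40 that was 0.09 without pool 1. Probe sets of this array type mostly lie near the 3′ end of a transcript, so these values do not separate the splice forms of the ligand-binding domain.

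Fgfr2 receives Fgf7 and Fgf10 in the ureteric epithelium. Its brightest probe set (1433489_s_at) read 2158.9 and 2076.4 under the control diet and 2905.4 and 2053 under iron deficiency, with a log2 difference of 0.21 ± 0.34 that was -0.016 after quantile normalization. A dimmer one (1420847_a_at) had control signals of 83 and 82.6 and iron-deficient signals of 119.4 and 83, a difference of 0.27 ± 0.35. On both, pool 1 was high and pool 2 was level with the controls, at -0.04 and 0.00 from the control mean on the log2 scale. The dimmest (1443211_at) read 13.8 and 13.4 under the control diet and 52.8 and 3.8 under iron deficiency and was too dim on average to be tested. Ureteric bud tip markers (Ret, Wnt11, Gfra1 and Etv4) summed to 1768.9 to 1867.6 in control and 1583.1 to 1712.5 in iron-deficient pools, and 0 of 4 had diets without overlap. Those of the ureteric trunk and collecting duct summed to 3718.9 to 4006.6 in control and 3209.1 to 4052.5 in iron-deficient pools. Of these markers, 3 of 5 (Gata3, Wnt9b and Aqp2) were lower in both iron-deficient pools. Hoxb7 was higher in both, but above background in only 1 pool.

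Fgfr3 (1421841_at) had control signals of 226.9 and 225 and iron-deficient signals of 121.6 and 227. The value of pool 2 was level with both controls and that of pool 1 was low, so the log2 difference of -0.44 ± 0.41 became 0.01 without pool 1. Its dimmer probe set (1425796_a_at) read 15.8 and 20.4 under the control diet and 27.4 and 12.4 under iron deficiency, the opposite order of the iron-deficient pools, with a difference of 0.04 ± 0.48 that was -0.033 after quantile normalization.

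Fgfr4 is the receptor through which Fgf15 acts on hepatocytes with the co-receptor Klb, and it had 5 probe sets. The brightest (1418596_at) had control signals of 196.5 and 154.3 and iron-deficient signals of 57 and 169.4, low in pool 1 and within the control range in pool 2. Its log2 difference was -0.83 ± 0.58 and was -0.04 without iron-deficient pool 1. The probe set 1427776_a_at read 57.1 and 43 under the control diet and 23.4 and 42.2 under iron deficiency, with both iron-deficient pools lower although pool 2 was so by a narrow margin, and a difference of -0.66 ± 0.42 (-0.23 without pool 1). The other 3 probe sets read 1.5 to 18.8 and were not tested. The summed signal of liver markers was 1427.8 and 1284.3 under the control diet, and under iron deficiency 225.4 in pool 1 and 2565.4 in pool 2. It was thus low in pool 1 like Fgfr4, but high in pool 2, unlike Fgfr4. Alb and Afp read 45.3, 31.4, 17.3 and 372.6, and 948.5, 846.4, 98.3 and 1289.6, in the same order. Ttr and Fgb were also low in pool 1, at 12.3 and 39.7. Apoa1, at 52.9 in pool 1, lay between its control signals of 57.4 and 33.1. Of the 6 markers 1, Apob, was lower in both iron-deficient pools but above background in only 1 of 4. Proximal tubule markers were low in both of these pools, as given above, and the part of either in the Fgfr4 values was not tested.

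Across the receptors, 8 of 9 tested probe sets had iron-deficient pool 1 farther from the control mean than pool 2, and in 5 of 9 pool 2 lay within 0.1 log2 units of that mean, where none did in pool 1. Over all tested probe sets, pool 1 was the farther one for 74.6%, and pool 2 lay within 0.1 for 22.3%. The share of all probe sets within 0.1 in pool 1 is not given, so the count there is not read as a result. For ligands, pool 1 was farther in 5 of 8. The median distance from the control mean was 0.68 log2 units in pool 1 and 0.23 in pool 2 for the members, and 0.60 and 0.24 for all tested probe sets.

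**Figure D3:**
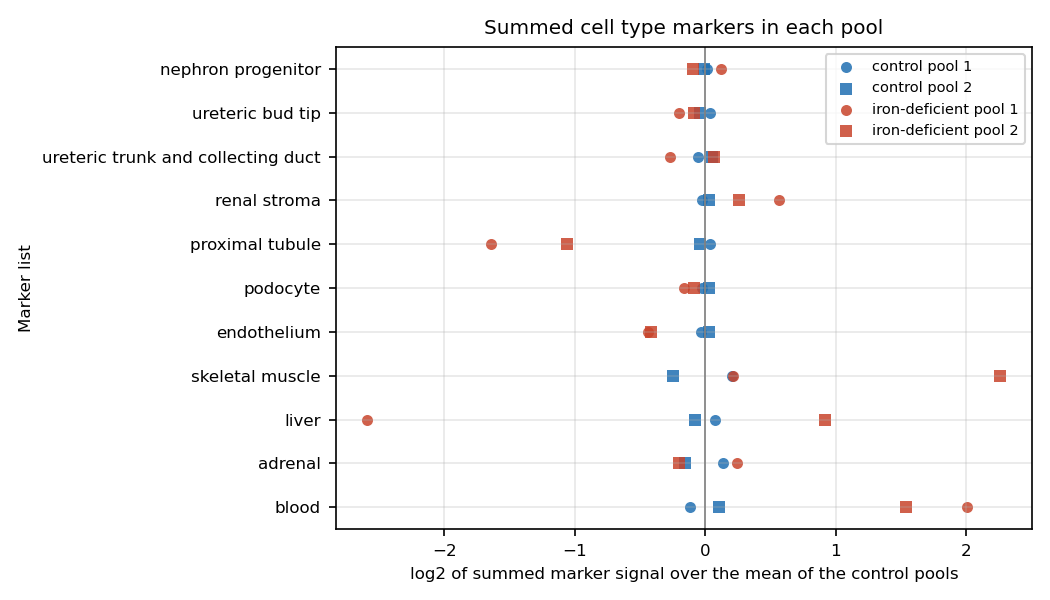
Summed signal of each cell type marker list in the 4 pools, as the log2 of its ratio to the mean of the control pools (colours and shapes as for the signals by pool: blue control, red iron-deficient, circles pool 1, squares pool 2). The proximal tubule sum is low in both iron-deficient pools (-1.65 and -1.06), while the liver sum is low in pool 1 (-2.59) and high in pool 2 (0.92).

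Other genes of FGF signalling were described from 7 lists of 74 genes, of which 55 were tested, each by its brightest probe set. None of the 55 passed over all probe sets by limma, and 2 (Kl and Fgf11) lay at an unadjusted p under 0.05. Each iron-deficient pool exceeded both controls for 17 of 55 (30.9%), against 13.1% of all 12997 tested genes, and below both for 10 of 55 (18.2%), against 26%. The median log2 difference was 0.12, against -0.14 for all tested genes. After median centring of the arrays the counts were 15 higher and 3 lower, where 9.2% and 14.6% of all tested genes were so.

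Among other ligands, 10 of 12 secreted ones were too dim to be tested. Fgf8, a ligand of early nephrons, had control signals of 14.2 and 20.5 and iron-deficient signals of 12.8 and 23.2. Fgf18 read 60.2 and 44.3 under the control diet and 37.1 and 85.4 under iron deficiency, on both sides of the controls, and Fgf15 read 13.2 to 23.6 in all pools, with log2 differences of 0.12 ± 0.49 and -0.02 ± 0.43. Of the intracellular FGF homologous factors, which do not act through FGF receptors, Fgf11 was higher in both iron-deficient pools, with 62.9 and 52.2 under the control diet and 96.6 and 256.9 under iron deficiency. Its log2 difference was 1.46 ± 0.53, which was 0.75 when iron-deficient pool 2 was left out and 2.16 when pool 1 was. Fgf12 and Fgf13 were lower in both, at -0.65 ± 0.41 and -0.31 ± 0.31, or -0.21 and -0.26 without pool 1. The list of 4 had 3 tested members and a median of -0.31.

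Co-receptors and binding partners had 4 of 11 tested members higher and 3 lower in each iron-deficient pool, with a median of 0.16. Kl, klotho, the co-receptor that lets Fgf23 act, had control signals of 173.5 and 169.6 and iron-deficient signals of 8 and 18.8, of which the 8 was below background. With that signal raised to background, the log2 difference was -3.38, and as measured it was -3.81 ± 0.48 (adjusted p = 0.452 by limma). Among the settings that kept all pools, Kl passed at adjusted p = 0.047 when limma was run on 1 probe set per gene. It also passed at 3.66e-08 after median centring and at 8.45e-13 with the replicate block. In both of those limma fits every probe set had the same spread, so p followed the size of the difference alone. Over all alternatives its adjusted p ran from 8.45e-13 to 0.858. The log2 difference was -3.79 and -3.82 without control pools 1 and 2, and -3.19 and -4.42 without iron-deficient pools 1 and 2. Proximal tubule markers were lower in the same pools, as given above, and their part in the Kl values was not tested. The glypican Gpc3, a heparan sulfate proteoglycan, read 1390.1 and 1649.5 under the control diet and 3825.8 and 2044.7 under iron deficiency (0.89 ± 0.42, or 0.43 without pool 1). The syndecan Sdc4, at 2323 and 2605.4 under the control diet and 4970.1 and 2759.8 under iron deficiency, was higher by 0.59 ± 0.40, or by 0.17 without pool 1, while its dimmer probe set differed by -0.32 ± 0.37. Flrt1, a membrane protein that binds FGF receptors, differed by 0.84 ± 0.59 and by 0.01 without pool 1, and by -0.25 ± 0.34 on its dimmer probe set. Fgfrl1, a receptor-like protein without a kinase domain that is needed for nephron formation, had control signals of 507 and 515.1 and iron-deficient signals of 369.8 and 678.7, on both sides of the controls, and differed by -0.03 ± 0.41 (0.12 after quantile normalization).

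Enzymes of heparan sulfate had 2 of 10 tested members higher and 3 lower in each iron-deficient pool, with a median of -0.27. Sulf2, an extracellular sulfatase that trims heparan sulfate, read 1766.1 and 1794.6 under the control diet and 3987.1 and 2366.5 under iron deficiency (0.79 ± 0.38, or 0.41 without pool 1), while its other probe sets, whose diets overlapped, differed by 0.24 ± 0.33 and 0.25 ± 0.34. Hs6st2, a sulfotransferase, was lower in both, at -0.39 ± 0.33 (-0.21 without pool 1), but its dimmer probe set differed by 0.16 ± 0.40. Ext2, part of the polymerase that builds the chain, differed by -0.72 ± 0.52 and by -0.04 without pool 1, and the sulfotransferase Hs3st1 by -0.46 ± 0.37 and by -0.16 without pool 1.

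Adaptors and relay proteins had 3 of 11 tested members higher and none lower in both iron-deficient pools, with a median of 0.04. The higher ones were the phospholipase Plcg1 (0.62 ± 0.41, or 0.17 without pool 1), the docking protein Gab1 (0.38 ± 0.33, or 0.20 without pool 1) and the adaptor Frs3 (0.32 ± 0.31, or 0.25 without pool 1). The kinase Map2k2, at 581 and 756.3 under the control diet and 339.4 and 623.1 under iron deficiency, differed by -0.53 ± 0.42, with overlapping diets, and by -0.089 without pool 1. These differences were within 2 standard errors of 0.

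**Figure D4:**
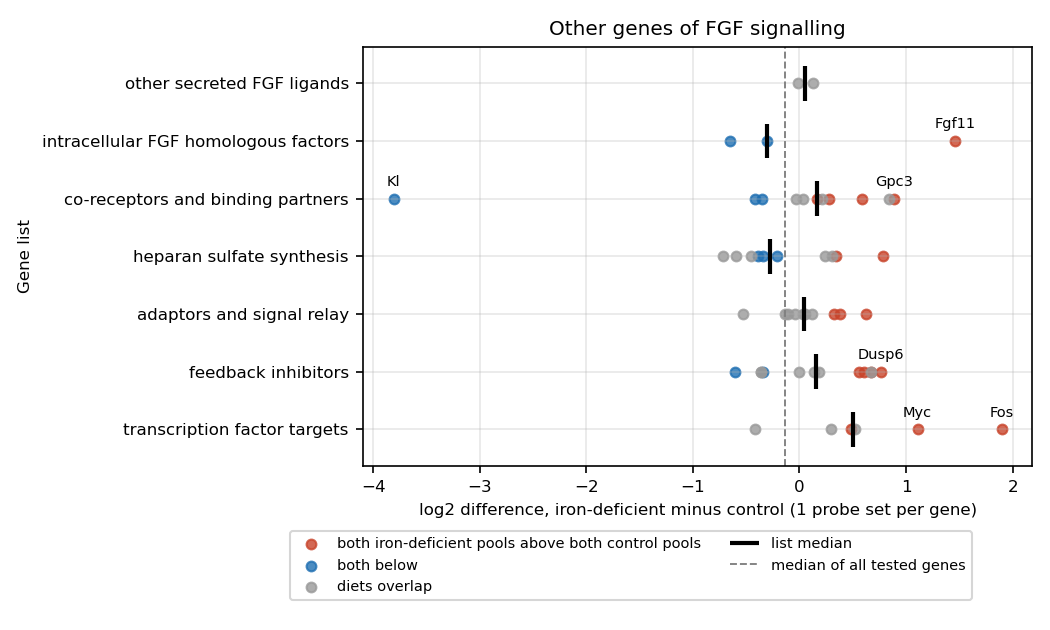
Differences between diets on the log2 scale (iron-deficient minus control) for the 55 tested genes of FGF signalling outside the ligands and receptors above, 1 point per gene in 7 lists. Red points had both iron-deficient pools above both control pools, blue points both below, grey points overlapped, black bars are list medians and the dashed line is the median of all tested genes (-0.14). Kl lies far to the left at -3.81, and Fos (1.90) and Fgf11 (1.46) farthest to the right.

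Feedback inhibitors, which the MAP kinase cascade induces or which act on it, had 4 of 12 members higher and 2 lower in each iron-deficient pool, with a median of 0.16. Dusp6 had control signals of 1021.7 and 1060.2 and iron-deficient signals of 2454.5 and 1269.3, and Spry2 read 1388.5 and 1333.7 under the control diet and 3211.7 and 1469.2 under iron deficiency. For both genes pool 1 was far above the controls and pool 2 just above them. Their log2 differences were 0.76 ± 0.42 and 0.67 ± 0.46, and 0.29 and 0.11 without pool 1. Spred2 followed the same order (0.60 ± 0.39, or 0.21 without pool 1). Spry1, which restrains Ret signalling in the ureteric bud, differed by 0.13 ± 0.36 and by -0.088 without pool 1. Dusp4 read 210.5 and 190.7 under the control diet and 93.2 and 186.2 under iron deficiency, low in pool 1, and differed by -0.60 ± 0.43 (-0.11 without pool 1). Il17rd, an inhibitor at the membrane, had control signals of 249.2 and 253.1 and iron-deficient signals of 152.2 and 249.8, and differed by -0.37 ± 0.38 (-0.0077 without pool 1).

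Transcription factor targets had 3 of 6 tested members higher and none lower in both iron-deficient pools, with a median of 0.50. Fos had control signals of 87 and 93.3 and iron-deficient signals of 124.6 and 902.8, very high in pool 2, with a difference of 1.90 ± 0.92 that was 0.47 without that pool. Myc read 227.8 and 230.6 under the control diet and 917.1 and 265.9 under iron deficiency, high in pool 1 instead, with a difference of 1.11 ± 0.62 that was 0.21 without pool 1. Egr1, at 914.1 and 1056.6 under the control diet and 1386.8 and 1360.4 under iron deficiency, was higher in both by similar amounts (0.48 ± 0.31). The ETS factors Etv4 and Etv5, targets of both FGF and Ret signals at ureteric tips, did not move together. Etv5 had control signals of 871.6 and 698.3 and iron-deficient signals of 1925.6 and 648.9 (0.52 ± 0.57, or -0.27 without pool 1), with -0.14 ± 0.44 and 0.09 ± 0.60 on its dimmer probe sets. Etv4 read 289.7 and 292.7 under the control diet and 146.7 and 325.5 under iron deficiency (-0.41 ± 0.46, or 0.16 without pool 1), while its dimmer probe set differed by 0.99 ± 0.47. Muscle markers summed to 228 and 166.8 under the control diet and 229.1 and 946.9 under iron deficiency, with 3 of 7 higher in both, of which Myh8 was above background in only 2 pools. Blood markers summed to 453.9 and 529 under the control diet and 1970.8 and 1427.5 under iron deficiency, with 3 of 5 higher in both and 1 lower. Adrenal markers summed to 95.4 to 116.9 in control and 92.6 to 125.6 in iron-deficient pools, with Star lower in both and none of those above background higher, and podocyte markers to 2490.6 to 2585.3 and 2265.7 to 2394.7, with 2 of 5 lower in both. The part of these other cells in the values above was not tested.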

How the data were processed

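Each of the 4 arrays has 1 deposited intensity per probe set, linear and between 0 and 13762.6, with a trimmed mean of 250.0 on every array. The submitters' processing notes name RMA, whose output would be logarithmic and equal in distribution, which these intensities are not, so their software is not given in the sources used. For this report, zeros were replaced by 0.1 before log2, 64 control probe sets were dropped, and of the remaining 45037 the dimmest 40% by mean log2 signal (below a signal of 17.3) were not tested. Diets were compared with limma 3.58.1 in R 4.3.3 (lmFit and eBayes, two-sided, diet as the only term, Benjamini-Hochberg over 27022 probe sets), on 2 residual and 3.49 prior degrees of freedom. Errors after ± are standard errors of log2 differences. Symbols come from the platform annotation (34945 probe sets with 1 symbol, 932 with several, 9160 with none), and 0 changed when updated through GRCm38.p6. The members and lists were chosen with earlier results of these data known. Every member probe set is named, and from each list the 4 genes with the smallest p plus 9 fixed genes: Spry1, Spry2, Dusp6, Etv4, Etv5, Fgfrl1, Fgf8, Kl and Il17rd. Alternatives were no filter, a 60% filter, quantile normalization, median centring, an offset of 16, trend, robust or weighted fits, a replicate block, 1 probe set per gene, each pool left out and, added after the data were seen, signals raised to background. The fit was tested on simulated data.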

Additional observations from a re-analysis of the deposited data

How the results depend on the processing

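With 2 pools per diet, of which iron-deficient pool 1 stood apart, only large differences could be seen. The brightest Fgf1 probe set kept its direction in all settings, from -1.46 to -1.12, and no member passed in any setting.

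Over all probe sets, limma called 0 higher and 0 lower as reported, 1 and 12 with 1 probe set per gene, 82 and 119 after median centring, 261 and 218 with the replicate block, and 0 to 42 and 0 to 33 with a pool left out. The pool numbers were not taken to pair the samples, since there are 2 pairs and nothing in the labels ties them (the deviations of same-numbered pools correlated at 0.357). Member probe sets without overlap were 3 higher and 4 lower, against 2 and 1 with the lowest 60% left out. They were 1 and 2 with 1 probe set per gene, where 13.1% and 26% of all tested genes were so. With a pool left out, where fewer pools have to separate, they were 3 to 8 and 4 to 8. For the pathway genes these counts were 21 to 27 higher and 12 to 23 lower with a pool left out, and 3 were lower after median centring (14.6% of all tested genes). Shares over the whole array are not given for the 60% filter or for a pool left out. The counts in those settings are therefore not read as results about these genes. The median log2 difference of the pathway genes was 0.060 to 0.12 with a pool left out. Among the settings that kept all pools, pathway genes past the threshold were 1 (Kl) with 1 probe set per gene and after median centring. They were 2 (Kl and Fos) with the replicate block.

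Signs turned after quantile normalization for Fgfr2 1433489_s_at (-0.016), Fgfr3 1425796_a_at (-0.033) and Fgfrl1 (0.12), and with signals raised to background for Fgf15 (0.046). With a pool left out, signs turned within these ranges: Fgf1 1441042_at -0.49 to 1.38, Fgf9 1420795_at -0.15 to 0.28, Fgfr1 1424050_s_at -0.18 to 0.36, Fgfr1 1425911_a_at -0.72 to 0.092, Fgfr2 1433489_s_at -0.045 to 0.46, Fgfr3 1421841_at -0.89 to 0.0067, Fgfr3 1425796_a_at -0.53 to 0.61, Fgf18 -0.48 to 0.73, Fgf15 -0.44 to 0.40, Fgfrl1 -0.47 to 0.41, Spry1 -0.088 to 0.35, Etv5 -0.27 to 1.30 and Etv4 -0.99 to 0.16. Beyond the pool left out, the cause was not tested.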
